A study of Homo sapiens with 6 samples.

Results

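The intestinal identity transcription factors described here are 8 genes, CDX1, CDX2, HNF4A, HNF4G, KLF4, KLF5, GATA6 and ATOH1, of the 58884 Ensembl genes in the deposited count table. They were chosen by gene symbol for their known role in intestinal epithelium, and each symbol matched 1 row. RNA was sequenced from 3 libraries of DLD1 parental cells, a human colorectal cancer line with a PIK3CA helical domain mutation, and from 3 libraries of DLD1 p85β K477A/R478A mutant cells (p85β KR-AA, or mutant, cells below). In the mutant cells both changes were knocked into the endogenous PIK3R2 gene, within a nuclear localization sequence of the PI3K regulatory subunit p85β. The mutant cells of the study were a pair of homozygous clones that had been derived independently, and the labels do not say which clone, or which culture, a library came from, so that p-values measure only the spread between these libraries. The source field of the labels reads K477A/R479A for p85β KR-AA replicate 2 and K477A/R480A for replicate 3, whereas the title and genotype fields of all 3 libraries read K477A/R478A. No treatment, dose or time is given for either condition.

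These factors act as a network in the gut. CDX2 and its relative CDX1 are caudal-type homeodomain proteins that specify and maintain intestinal fate along the hindgut, and HNF4A and HNF4G are paired nuclear receptors that drive enterocyte genes, often at the same enhancers as CDX2. KLF4 and KLF5 are zinc finger proteins that bind similar CACCC and GC-rich sites and mark opposite ends of the crypt, with KLF5 in dividing and KLF4 in differentiated cells. GATA6 is an endodermal zinc finger factor of the crypt and proximal colon, and ATOH1 is the basic helix-loop-helix factor that commits progenitors to goblet and other secretory fates.

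Parental cells and p85β KR-AA cells both kept intestinal factors, but at different levels. CDX2 fell 3.94-fold in p85β KR-AA cells, yet it still stood at 88.0 ± 5.18 CPM (the count scaled by a TMM-corrected depth, SD, n = 3). In bulk RNA, fewer cells that express a factor and less RNA of it per cell cannot be told apart. KLF4, KLF5 and GATA6 were 2.82-fold, 2.72-fold and 1.83-fold higher, each with an adjusted p under 0.01 and each short of the 3-fold threshold that a call required. HNF4A did not pass the test. CDX1, HNF4G and ATOH1 had few or no counts in both conditions, and edgeR's filter on low counts removed them before the test.

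The start sites of the 4 factors whose difference had an adjusted p under 0.01 are shown first, because they are the factors on which the results turn. Promoter entries from RefSeq (GRCh38.p14) were found for 6 of the 8 genes. The 250 bases before each start are printed 5′ to 3′ on the strand of the gene. Capitals mark short words searched on both strands: the CDX core TTTATN, the TATA box TATAAA, which overlaps that core on the other strand, the GC box GGGCGG, the CACCC box CCACCC, the GATA core AGATAA and the HNF4 element CAAAGTCCA.
CDX2, chr13:27969316-27969565, minus strand: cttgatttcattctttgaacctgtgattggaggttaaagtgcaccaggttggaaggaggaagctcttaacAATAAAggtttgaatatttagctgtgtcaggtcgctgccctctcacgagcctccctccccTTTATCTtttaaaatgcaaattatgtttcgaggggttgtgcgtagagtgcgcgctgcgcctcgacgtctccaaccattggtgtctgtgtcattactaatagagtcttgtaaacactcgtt
KLF4, chr9:107489770-107490019, minus strand: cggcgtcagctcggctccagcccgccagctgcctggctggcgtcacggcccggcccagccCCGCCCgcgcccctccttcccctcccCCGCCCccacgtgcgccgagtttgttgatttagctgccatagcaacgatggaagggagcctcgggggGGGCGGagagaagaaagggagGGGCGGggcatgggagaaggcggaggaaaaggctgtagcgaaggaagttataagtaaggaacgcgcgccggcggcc
KLF5 start 1, chr13:73054726-73054975, plus strand: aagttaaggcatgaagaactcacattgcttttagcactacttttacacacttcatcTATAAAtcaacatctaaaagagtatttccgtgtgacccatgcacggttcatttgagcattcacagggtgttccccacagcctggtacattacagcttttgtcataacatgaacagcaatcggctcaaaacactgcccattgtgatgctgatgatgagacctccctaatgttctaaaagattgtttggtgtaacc
KLF5 start 2, chr13:73058755-73059004, plus strand: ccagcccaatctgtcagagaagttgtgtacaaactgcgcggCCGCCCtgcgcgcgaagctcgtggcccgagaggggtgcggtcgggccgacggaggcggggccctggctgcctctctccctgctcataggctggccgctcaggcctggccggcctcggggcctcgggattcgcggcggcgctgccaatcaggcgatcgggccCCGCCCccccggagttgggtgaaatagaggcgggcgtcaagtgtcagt
GATA6, chr18:22169339-22169588, plus strand: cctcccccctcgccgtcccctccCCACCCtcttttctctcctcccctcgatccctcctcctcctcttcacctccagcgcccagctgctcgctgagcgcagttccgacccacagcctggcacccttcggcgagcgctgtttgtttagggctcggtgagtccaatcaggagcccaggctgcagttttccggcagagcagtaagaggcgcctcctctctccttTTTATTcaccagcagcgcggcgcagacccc

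The CDX2 window held 2 CDX cores, 1 of which ran into a GATA core, and it was 45.2% G and C. The KLF4 window held 4 GC boxes and was 69.2% G and C. The second KLF5 window held 2 GC boxes at 70.8% G and C. The window of the first, upstream start was 40.8% G and C. It held a TATA box word 194 bases before the start, which is also a CDX core on the other strand. The GATA6 window held 1 CACCC box and 1 CDX core. None of the windows held the HNF4 element. Over the same 250 bases of 35114 RefSeq promoters, 32.6% held a CDX core, 10.7% a TATA box, 42.6% a GC box, 31.3% a CACCC box, 9.17% a GATA core and 0.325% the HNF4 element. Gene-level counts do not tell the KLF5 starts apart, and a word in a window is a description of the letters only.

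The libraries differed in more than single genes. Totals were 20301932 to 20873475 counts in parental and 20301396 to 26712816 in mutant libraries, and 3 counts in a library, taken as the detection floor, equalled 0.0818 to 0.218 CPM (counting error only). Long genes, over 4000 bases, held 9.49% to 12.1% of parental counts, lowest in parental replicate 2, but 27.7% to 28.9% of those of the mutant cells. A gene was called when it differed 3-fold or more with an adjusted p under 0.01 in edgeR's quasi-likelihood test, which made 28.6% of the 16059 genes tested up-regulated and 17.6% down-regulated. The median gene had a log2 fold change of 0.32 under TMM scaling and of 1.241 when libraries were scaled by their totals, a shift of 0.92. Among 7 Y-linked genes 5 were up-regulated (7 with library totals, 1 with gene length and GC offsets), and the 7 summed to 16.7 to 20.1 CPM in parental and 258.0 to 291.1 CPM in mutant libraries. All 7 had counts in each mutant library and all but RPS4Y1, which had none, in each parental one, and their part in the results below was not tested. A difference between the stocks of DLD1 cells behind the libraries and the effect of the knock-in cannot be told apart in any mutant-to-parental value given here.

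CDX2 (ENSG00000165556, chromosome 13) had the highest level per gene length in parental cells, in TPM (given for all factors further on). Its level was 365.2, 322.0 and 352.7 CPM in parental replicates 1, 2 and 3, and 85.5, 84.5 and 93.9 CPM in p85β KR-AA replicates 1, 2 and 3. Every p85β KR-AA library lay below every parental library. Conditions did not overlap for 4 of the 5 tested factors, as was the case for 83.4% of all genes tested. The mean fell from 346.7 ± 22.2 to 88.0 ± 5.18 CPM (SD, n = 3 each). On the log2 scale this was -1.98 with a standard error of 0.12 (edgeR, adjusted p = 1.96e-08). Down-regulation was the rarer direction among genes of similar size. Of 5782 tested genes between 2936 and 6445 bases, the length range of the tested factors, 7.59% were down-regulated and 37.3% up-regulated, and their median log2 fold change was 0.98. The direction of the CDX2 difference was the same in every fit run, but its size was not. It was -1.06 with libraries scaled by their totals, where 6.06% of genes were down-regulated, and -1.47 with gene length and GC offsets, where 10.8% were, and in both fits it missed the 3-fold threshold. With an offset for gene length alone it was -2.86, where 18.8% of genes were down-regulated.

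CDX1 (ENSG00000113722, chromosome 5), which shares the homeodomain of CDX2, was not detected above the floor. The counts were 3, 0 and 2 in parental and again 3, 0 and 2 in p85β KR-AA replicates 1, 2 and 3. No library passed 3 counts, so that no fold is given. A difference in CDX1 was not detectable at this depth. The ratio of CDX1 to CDX2 rests on the count added to each gene and on CDX2, with a two-sided exact permutation p = 0.5 when 0.5 counts were added and p = 0.1, the smallest possible, when 3 were added, so that nothing is read from it about CDX1.

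**Figure D1:**
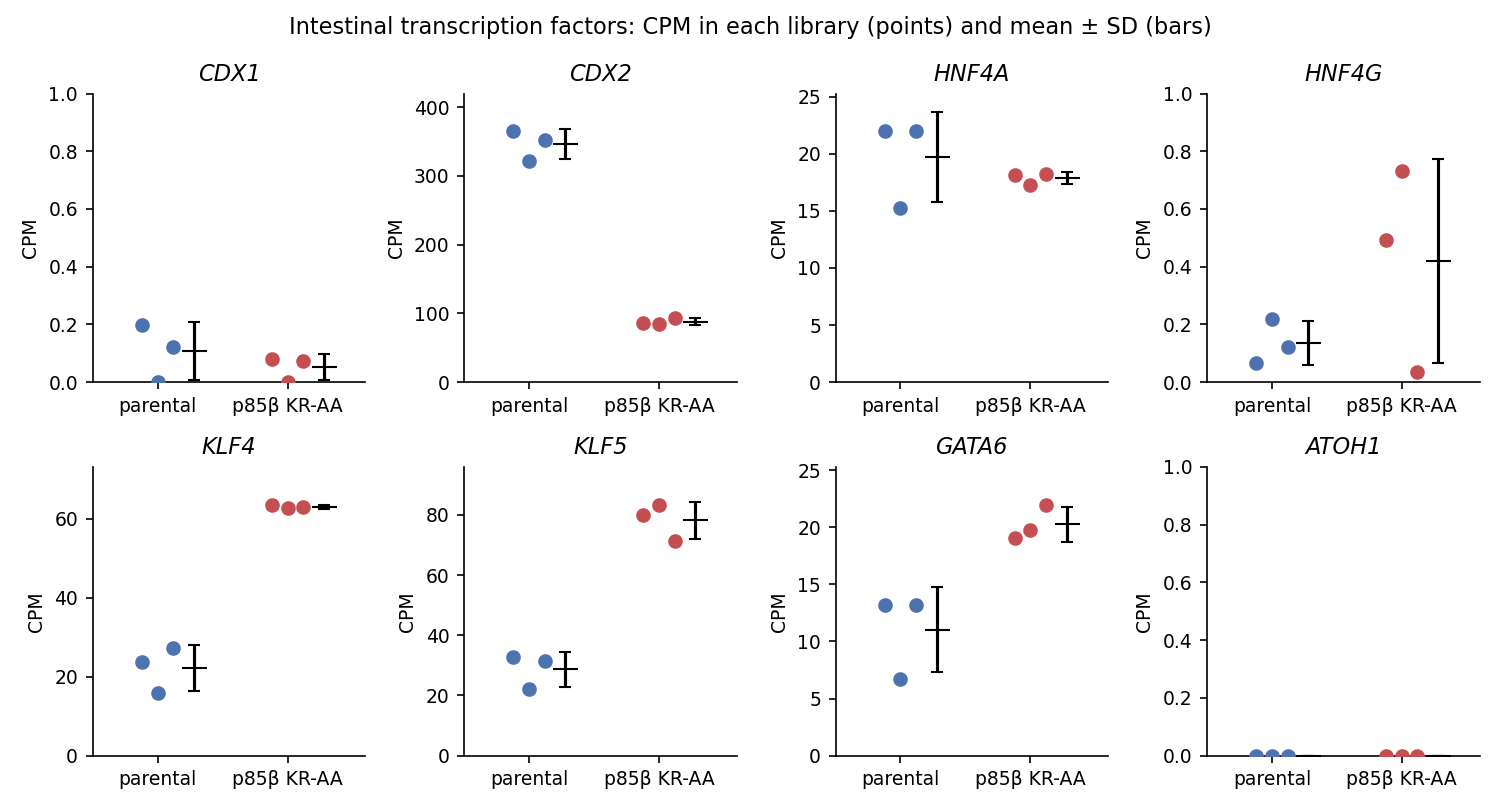
Level of each of the 8 factors in CPM (vertical axis, linear, from 0) in each of the 3 parental (blue) and 3 p85β KR-AA (red) libraries, with bars for the mean and SD. CDX2 lies between 322.0 and 365.2 CPM in parental and between 84.5 and 93.9 CPM in mutant libraries, KLF4, KLF5 and GATA6 are higher in mutant libraries, HNF4A overlaps, and CDX1, HNF4G and ATOH1 stay under 1 CPM.

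KLF4 (ENSG00000136826, chromosome 9) and KLF5 (ENSG00000102554, chromosome 13) differed by nearly the same amount. KLF4 had 23.6, 15.9 and 27.3 CPM in the parental libraries and 63.5, 62.6 and 62.9 CPM in the p85β KR-AA libraries. KLF5 had 32.7, 22.1 and 31.5 CPM in the parental libraries and 79.9, 83.4 and 71.3 CPM in the p85β KR-AA libraries. Neither gene overlapped between conditions, and parental replicate 2 was the lowest library for both. By edgeR the log2 fold change of KLF4 was 1.496, with a standard error of 0.18 and an adjusted p = 6.89e-06. That of KLF5 was 1.44, with a standard error of 0.17 and an adjusted p = 3.84e-06. Across all genes tested, 41.6% were higher in p85β KR-AA cells at an adjusted p under 0.01 with no fold threshold, so these differences were common ones in this comparison. The ratio of KLF4 to KLF5 per base of gene length was 0.823, 0.825 and 0.989 in parental and 0.907, 0.856 and 1.01 in p85β KR-AA replicates 1, 2 and 3. Its log2 value differed by 0.072 between conditions, with two-sided p = 0.5 in the exact permutation test (p = 0.5 after Benjamini-Hochberg adjustment over 3 ratios, smallest possible p = 0.1).
The fits separated the pair. With gene length and GC offsets, KLF4 passed the 3-fold threshold (2.04 on the log2 scale, adjusted p = 3.45e-07, edgeR), as 14.1% of all genes did upward, whereas KLF5 dropped to 0.30 (adjusted p = 0.081). The longest annotated transcript of KLF4 was 55.9% G and C and that of KLF5 45.3%. With library totals both passed, at 2.41 and 2.36. Without parental replicate 3, KLF4 also passed (1.63).

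GATA6 (ENSG00000141448, chromosome 18) showed the smallest of the differences with an adjusted p under 0.01. It had 13.2, 6.70 and 13.2 CPM in the parental libraries and 19.1, 19.7 and 22.0 CPM in the mutant ones. The p85β KR-AA libraries all lay above the parental ones, among which replicate 2 was about as far below its replicates as these were below the mutant cells. In edgeR the difference was 0.87 on the log2 scale (SE 0.23, adjusted p = 0.0039), 0.59 without parental replicate 2 (adjusted p = 0.0049) and 0.21 with an offset for gene length (adjusted p = 0.38). Without p85β KR-AA replicate 2 or 3 its adjusted p was 0.0102 and 0.0149. With library totals it was 1.78 and passed the 3-fold threshold. GATA6-AS1, a noncoding gene that overlaps GATA6 by 290 bases on the other strand, had 25, 42 and 22 counts in parental and 54, 56 and 63 in mutant libraries, against 199, 92 and 214 and 698, 567 and 603 for GATA6. The sources used here do not say that counting used strand, so reads from the shared bases cannot be told apart.

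HNF4A (ENSG00000101076, chromosome 20) had 22.0, 15.2 and 22.0 CPM in the parental libraries and 18.1, 17.3 and 18.2 CPM in the p85β KR-AA libraries. The p85β KR-AA values all lay inside the parental range, and edgeR's log2 fold change was -0.14 (SE 0.18, adjusted p = 0.47), a sign that rested on the scaling. It was 0.77 with library totals (adjusted p = 0.0045), -0.76 with gene length and GC offsets (adjusted p = 7.55e-05), and -1.86 with an offset for gene length alone (adjusted p = 1.54e-07), the latter past the 3-fold threshold, as for 18.8% of genes downward. At 6445 bases HNF4A is the longest of the tested factors. The antisense gene HNF4A-AS1 had no count in any library, and the counts do not separate the HNF4A isoforms that start at its separate promoters.

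HNF4G (ENSG00000164749, chromosome 8) was far below HNF4A. It had 1, 3 and 2 counts in parental and 18, 21 and 1 in p85β KR-AA replicates 1, 2 and 3, so that the conditions overlapped through p85β KR-AA replicate 3. Summed over libraries, 40 counts against 6 gave a ratio of 3.23 after scaling (exact 95% interval 1.36 to 9.33, counting error only). With the filter on low counts lifted, edgeR's log2 fold change was 1.67, and its p is not given because the prior degrees of freedom of that fit were infinite. When p85β KR-AA replicate 3 was left out, HNF4G passed the filter through the mutant libraries where it was high (log2 fold change 2.14). Leaving out its low mutant library set that outcome, so its p is not given and nothing is read from it. The log2 ratio of HNF4A to HNF4G per base was 6.33 ± 0.96 in parental and 5.41 ± 2.06 in mutant libraries (SD, n = 3 each), with two-sided p = 0.5 in the exact permutation test (adjusted p = 0.5, smallest possible p = 0.1). With 3 counts added in place of 0.5, the difference went from -0.92 to -0.45 (exact permutation p = 0.7), so that its size rests on the few HNF4G counts.

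ATOH1 (ENSG00000172238, chromosome 4) had 0 counts in all 6 libraries. A count of 0 allows up to 3 counts, which is 0.185 to 0.218 CPM in a parental and 0.0818 to 0.109 CPM in a p85β KR-AA library.

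In counts of genes called by edgeR, 1 of the 5 tested factors was down-regulated against 17.6% of all genes tested, and 0 were up-regulated against 28.6%, so that 1 of 5 was called in either direction against 46.2%. An adjusted p under 0.01 at any fold was reached by 4 of the 5, against 74.3%. DESeq2 also called 0 up-regulated, and 3 were higher at an unadjusted p under 0.05 by edgeR. The median log2 fold change of the 5 was 0.87, beside 0.32 for all genes tested. With library totals 3 were up-regulated, against 43.9% of genes.

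**Figure D2:**
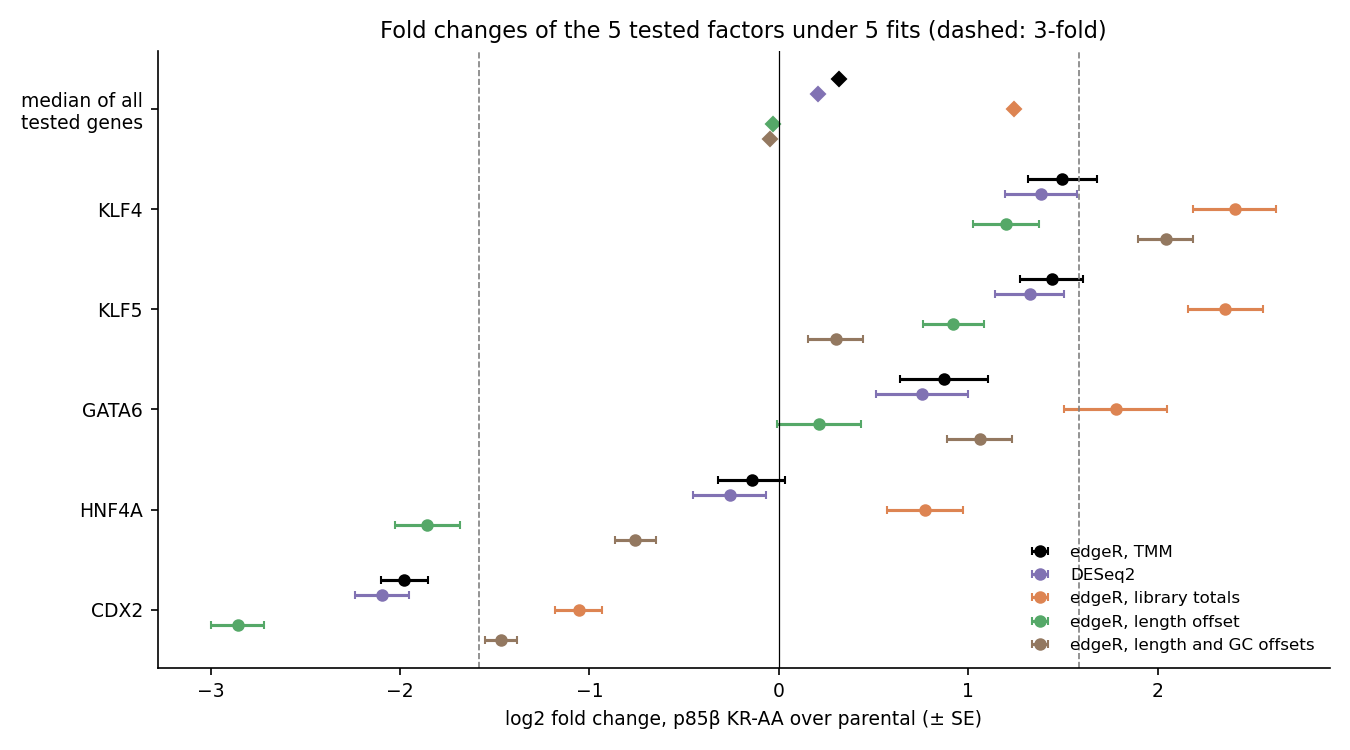
Log2 fold change of p85β KR-AA over parental cells (horizontal axis, bars are standard errors) for the 5 tested factors under 5 fits, with diamonds for the median of all tested genes in each fit and dashed lines at a 3-fold change. CDX2 lies below 0 and KLF4, KLF5 and GATA6 lie above 0 in all 5 fits, while HNF4A ranges from -1.86 to 0.77.

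Levels were set side by side per base of gene length, in TPM, computed from the deposited counts and lengths. This scale divides each count per base by the sum of counts per base over all genes of the library, with no TMM factor. Its folds therefore differ from those above, also from those with library totals. In parental cells CDX2 stood at 85.6 ± 13.2 TPM, far above KLF5 at 8.67 ± 2.46 and KLF4 at 7.70 ± 2.68 TPM, followed by GATA6 at 3.10 ± 1.28 and HNF4A at 3.09 ± 0.87 TPM (SD, n = 3 each). KLF5 and KLF4 did not differ from each other beyond their spread, nor did GATA6 and HNF4A. In p85β KR-AA cells KLF5 at 60.7 ± 6.43, CDX2 at 56.3 ± 2.13 and KLF4 at 55.7 ± 1.41 TPM overlapped, and GATA6 at 14.5 ± 0.89 and HNF4A at 7.19 ± 0.052 TPM came below them (SD, n = 3 each). HNF4A, which overlapped between conditions in CPM, did not on this scale, at 2.09 to 3.70 TPM in parental and 7.15 to 7.25 TPM in mutant libraries. HNF4G and CDX1 stayed under 0.5 TPM in every library. Among detected genes CDX2 stood at percentile 91.7 to 93.0 in parental and 88.7 to 89.5 in mutant libraries, and KLF4 at 66.2 to 73.2 and at 88.7 to 89.4.

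**Figure D3:**
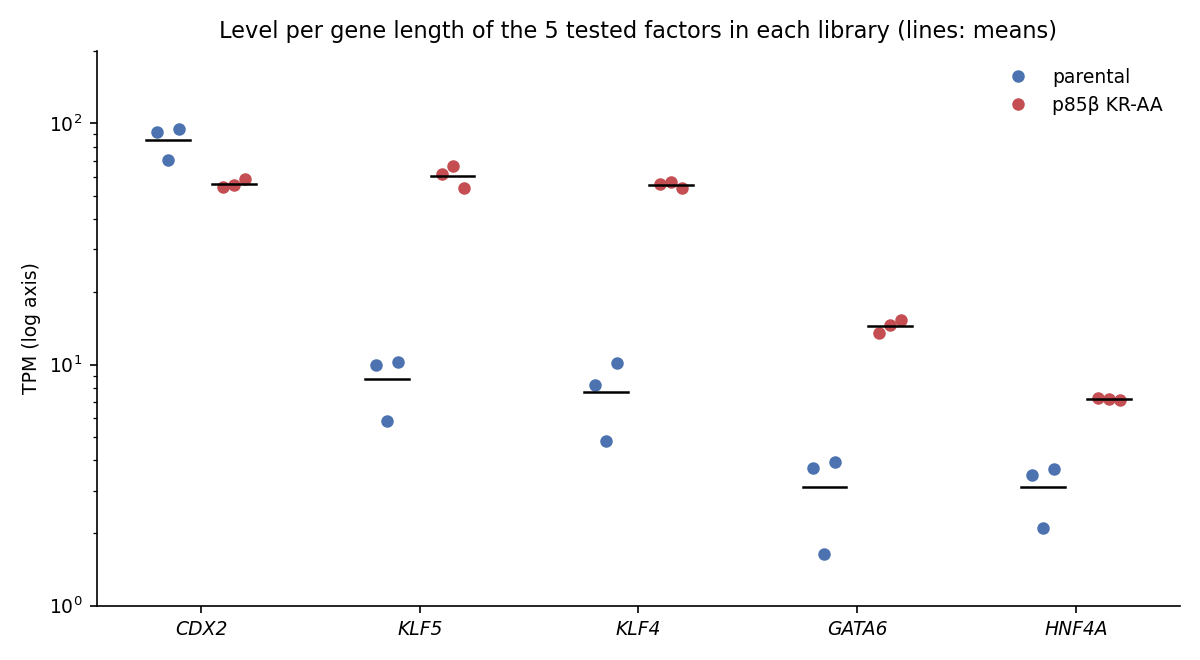
Level per gene length in TPM (vertical axis, logarithmic) of the 5 tested factors in each parental (blue) and p85β KR-AA (red) library, with lines at the means. CDX2 alone is above 70 TPM in parental libraries, while CDX2, KLF4 and KLF5 all lie between 53.9 and 66.6 TPM in mutant libraries.

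A ratio of 2 factors within a library does not depend on the scaling for depth. These pairs were chosen after the values were seen and are given without a test. There were 9.23, 12.04 and 9.24 CDX2 reads per KLF5 read in parental replicates 1, 2 and 3, per base of gene length, and 0.885, 0.837 and 1.09 in p85β KR-AA replicates. CDX2 exceeded HNF4A by 26.4, 33.6 and 25.5 times in parental and by 7.51, 7.76 and 8.19 times in mutant libraries. Neither ratio overlapped between conditions. The shares of counts from long genes given above also differed between conditions, and their part in these ratios was not tested.

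The genes whose log2 CPM, centred on its mean, ran closest to each factor over the 6 libraries were picked from 12063 protein-coding genes by Euclidean distance. They were MTMR14 and PRKCZ for CDX2 (distance 0.097 each), SLC39A14 (0.080) and B4GALT1 (0.15) for KLF4, and SPRY2 (0.10) and DIP2A (0.16) for KLF5. For GATA6 they were SLC9A8 (0.073) and OAS3 (0.093), and for HNF4A they were COPG1 (0.081) and ZNF792 (0.0997). A small distance requires a similar difference between the 2 conditions. MTMR14 and PRKCZ had log2 fold changes of -1.94 and -1.96, beside -1.98 for CDX2. A link between these genes and the factors was not tested.

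Around these factors, 33 other intestinal transcription factors were followed, of which edgeR's filter kept 22. Calls were made for 7 of the 22 upward, near the 28.6% of all genes tested, and for 2 downward, where all genes gave 17.6%. The other 13 did not pass, and the median log2 fold change was 0.81, beside 0.32 for all genes. With library totals 43.9% of all genes tested were up-regulated and 6.06% down-regulated. With length and GC offsets these shares were 14.1% and 10.8%.
Among 8 endoderm factors 5 were tested, with 1 up-regulated and 1 down-regulated (2 and 1 with library totals, 0 and 1 with length and GC offsets). FOXA3, a forkhead factor of gut and liver, fell from 26.6 ± 3.54 to 2.64 ± 0.63 CPM (SD, n = 3 each), which is a log2 difference of -3.32 (SE 0.22, adjusted p = 2.84e-08, edgeR). ONECUT2, a cut-homeodomain factor, rose by 2.103 on the log2 scale from 0.610 CPM, but the value was -1.07 with length and GC offsets. The list had a median of -0.67. FOXA1 and FOXA2 did not pass the fold threshold, at 0.80 and -0.67, and FOXA2 turned to 0.24 with library totals and to 0.39 with length and GC offsets.
Among 13 absorptive and epithelial factors 10 were tested and 5 were up-regulated (7 with library totals, 3 with length and GC offsets), with a median of 1.48. By edgeR 0 were down-regulated, as by DESeq2. ELF3 was lower but short of 3-fold (log2 fold change -0.51, adjusted p = 0.0014, edgeR), and was at 0.42 with library totals. EHF, an epithelial ETS factor, rose from 19.98 ± 3.73 to 110.0 ± 17.9 CPM (SD, n = 3 each; log2 fold change 2.46, standard error 0.18, adjusted p = 6.26e-08, edgeR). PRDM1, a zinc finger repressor, rose from 0.513 to 4.66 CPM (3.17). MAF had 0, 0 and 2 counts in parental and 218, 222 and 164 in mutant libraries, a ratio of 146.4 (exact 95% interval 40.4 to 1212, counting error only). With length and GC offsets these log2 fold changes were 1.76 for EHF, 2.01 for PRDM1 and 6.40 for MAF.
Among 5 crypt factors, all tested, ASCL2 fell and SOX9 rose. ASCL2, a WNT-dependent stem cell factor, went from 242.2 ± 61.5 to 19.4 ± 2.53 CPM (SD, n = 3 each; log2 fold change -3.64, standard error 0.19, adjusted p = 7.54e-09, edgeR). SOX9, which marks the crypt base, went from 50.9 ± 17.2 to 218.8 ± 9.28 CPM (SD, n = 3 each; log2 fold change 2.102, standard error 0.22, adjusted p = 1.34e-06, edgeR). The median of the list was 0.83, and both calls held with length and GC offsets (-1.59 and 1.65). With library totals 3 of the list were up-regulated and 1 down-regulated.
Among 7 secretory factors, which act with or after ATOH1, 2 were tested and edgeR called 0 in either direction, as did DESeq2. SPDEF, a goblet cell factor, was lower but short of 3-fold (log2 fold change -1.43, adjusted p = 0.00028, edgeR). It was at 0.32 with length and GC offsets. GFI1 was at -0.37 (0.55 with library totals). NEUROG3, PAX4 and FEV had 0 counts in every library.

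Of 28 intestinal effector genes that CDX2, HNF4A or their partners are known to serve, 13 were tested, 3 were up-regulated and 5 down-regulated, with a median log2 fold change of -1.09. Among all genes tested 28.6% were up-regulated and 17.6% down-regulated. CDH17, an intestinal cadherin and textbook CDX2 target, rose from 6.60 ± 1.81 to 28.5 ± 1.94 CPM (SD, n = 3 each; log2 fold change 2.104, standard error 0.20, adjusted p = 7.98e-07, edgeR), but the value was 0.99 with length and GC offsets, under 3-fold. CEACAM5, the carcinoembryonic antigen, rose from 0.388 ± 0.038 to 20.5 ± 1.99 CPM (SD, n = 3 each; log2 fold change 5.66). SLC15A1, a peptide transporter, had 22, 29 and 27 counts in mutant and none in parental libraries, at least 3.96-fold higher than the floor of a parental library. On the other side PHGR1 (-3.31), the lectin LGALS4 (-3.17), the microvillus protein VIL1 (-1.66) and the carbonic anhydrase CA2 (-1.61) fell, of which VIL1 and CA2 were at -0.75 and -0.69 with library totals, under 3-fold. SI, APOB, MEP1A, FABP1, FABP2 and SLC26A3 had 0 counts in all 6 libraries. With length and GC offsets 2 of the effector genes were up-regulated and 4 down-regulated, where all genes gave 14.1% and 10.8%. With library totals 3 were up-regulated and 2 down-regulated, where all genes gave 43.9% and 6.06%.

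**Figure D4:**
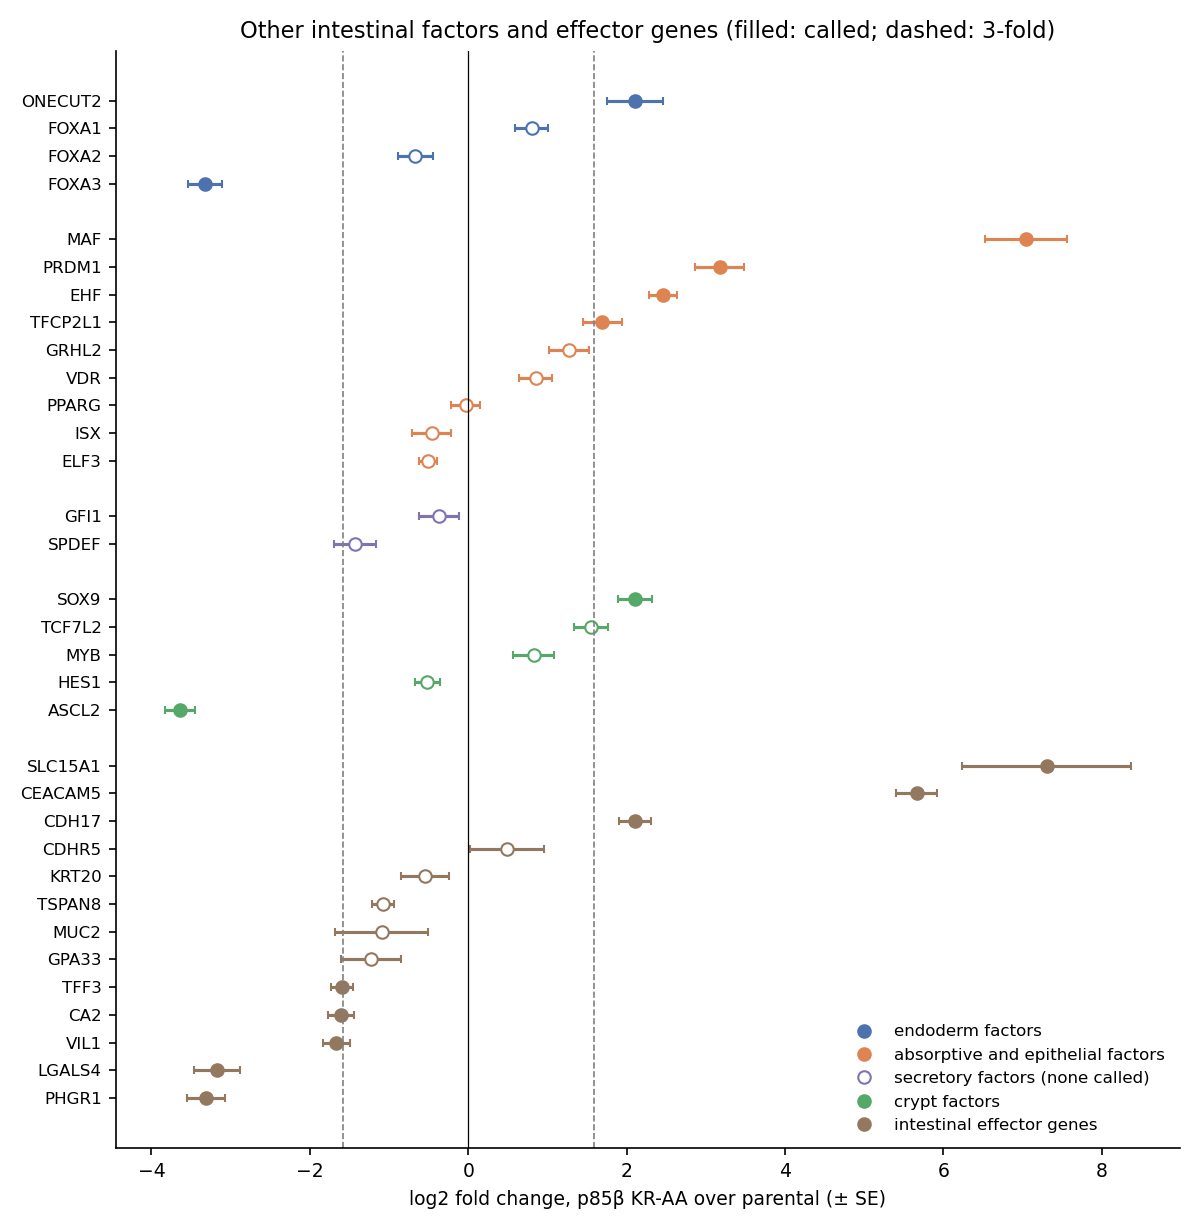
Log2 fold change of p85β KR-AA over parental cells (horizontal axis, bars are standard errors, edgeR) for tested genes of the 4 other factor lists and of the intestinal effector genes, filled where called and with dashed lines at a 3-fold change. Absorptive and epithelial factors reach from -0.51 for ELF3 to MAF, crypt factors from -3.64 for ASCL2 to 2.102 for SOX9, and the fitted values of MAF and SLC15A1 rest on 2 and 0 parental counts.

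Both conditions carried epithelial RNA, and markers of other cell types differed between them as well. All 10 general epithelial markers were tested, of which 6 were down-regulated and 1 up-regulated (median log2 fold change -1.98). With library totals 3 were down-regulated and 1 up-regulated, and with length and GC offsets 1 and 0. All genes tested gave 17.6% down-regulated and 28.6% up-regulated. These shares were 6.06% and 43.9% with library totals, and 10.8% and 14.1% with length and GC offsets. KRT8 fell from 37381 ± 6401 to 4454 ± 417 CPM and KRT18 from 18441 ± 2744 to 2537 ± 263 CPM, whereas CDH1 (E-cadherin) rose from 97.3 ± 33.7 to 343.8 ± 20.2 CPM (SD, n = 3 each). With length and GC offsets the log2 fold changes were -1.90 for KRT8, -1.58 for KRT18 and 0.61 for CDH1. The summed level of the list was 59067 to 81168 CPM in parental and 9298 to 10886 CPM in mutant libraries.
Of 12 mesenchymal markers 7 were tested and 5 up-regulated, and the sum of the list was 7.65 to 10.8 CPM in parental against 6316 to 7231 CPM in mutant libraries. VIM had a log2 fold change of 11.10 and FN1 one of 10.18, while PDGFRA had no count in any library and COL1A2, PRRX1 and THY1 had at most 1. The median of the tested markers was 7.93, or 4.10 with genes that had no parental count set at their lower bound.
Of 10 neuron markers 5 were tested and 3 up-regulated (2 with length and GC offsets, median 2.73). Against the parental floor, NEFL was at least 602.1-fold and NEFM at least 8.53-fold higher, and DCX and ELAVL4 had 0 counts throughout. TUBB3, the most abundant gene of the list, was lower but short of 3-fold, with means of 561.4 CPM in parental and 210.9 CPM in mutant libraries. Its log2 fold change was -1.41 (adjusted p = 3.05e-07, edgeR), or -0.49 with library totals and -0.34 with length and GC offsets. The sum of that list was 522.1 to 610.1 CPM in parental and 342.5 to 365.0 CPM in mutant libraries. Of 8 hepatocyte markers 2 were tested and none was called by edgeR or DESeq2, though 1 was higher at an adjusted p under 0.01 by edgeR. With library totals 1 was up-regulated, and with length and GC offsets 1 in each direction (sum 43.99 to 48.6 and 85.1 to 98.7 CPM, TTR at 0 throughout). Of 7 kidney markers 3 were tested and PAX2 fell (-2.68), with sums of 8.67 to 8.97 and 6.96 to 7.38 CPM and with UMOD and SLC12A1 at 0 throughout. These levels moved with the lower CDX2 and the higher KLF4, KLF5 and GATA6 levels, and their part in those differences was not tested.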

How the data were processed

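RNA-seq of 3 parental and 3 p85β KR-AA libraries of DLD1 cells was analysed. The deposited table, made by the authors, holds estimated counts for each Ensembl gene, without normalization, and a gene length. SeqPrep and Sickle served for trimming, and the submitters' processing notes name HISAT2 2.1.0, RSEM 1.3.1, DESeq2 1.24.0 and hg18, without a role for any of them. The annotation behind the counts is not given in the sources used here. Symbols came from GENCODE release 44 (56745 of 58884 genes matched).

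Counts were rounded and tested with edgeR 4.0.16 under R 4.3.3. The steps were filterByExpr (minimum count 10, minimum total 15), TMM, the quasi-likelihood F test and Benjamini-Hochberg adjustment over 16059 genes. Calls needed a 3-fold difference and an adjusted p under 0.01, as in the paper. Standard errors were the log2 fold change over the root of F. Ratios added 0.5 counts. Length and GC offsets were splines with 5 degrees of freedom per library, fitted with MASS (GC value for 15902 tested genes). DESeq2 1.42.0 was an alternative. The code was tested on simulated counts. Replicates were separate libraries, as pairs of one condition varied 4.08 to 35.8 times more than sampling gives. The genes, the lists and the alternatives were chosen with earlier results of these data known. Named genes are the 8 factors and, from each list, the called genes of largest change without overlap, up to 4 per direction (2 for markers), and genes at 0 counts. FOXA1, FOXA2, SPDEF, GFI1, ELF3, COL1A2, PRRX1, THY1 and TUBB3 were named after their values were seen. The list counts under library totals and under length and GC offsets were likewise chosen later. Some list genes are counted but not reported singly here.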

Additional observations from a re-analysis of the deposited data

How the results depend on the processing

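Under all alternatives run, the log2 fold change in p85β KR-AA cells was negative for CDX2 and positive for KLF4, KLF5 and GATA6. KLF5 was only at 0.30 with length and GC offsets (edgeR, adjusted p = 0.081). GATA6 was only at 0.21 with the length offset alone (edgeR, adjusted p = 0.38). With library totals the log2 fold changes were -1.06 for CDX2 (no longer 3-fold), 2.41 for KLF4, 2.36 for KLF5 and 1.78 for GATA6 (all now called), and HNF4A reversed to 0.77, while 7052 genes were up-regulated and 973 down-regulated, against 4597 and 2825 with TMM, so that 3 factors were up-regulated and 0 down-regulated. Up-regulated genes were 87.9% of those called with library totals and 61.9% with TMM. With length and GC offsets CDX2 was at -1.47 and KLF4 at 2.04, with 2260 genes up-regulated, 1734 down-regulated, 1 factor up-regulated and 0 down-regulated. With the length offset alone HNF4A reached -1.86, 2 factors were down-regulated and 2945 genes were up-regulated, and up-regulated genes were 49.4% of those called. At an adjusted p under 0.05 with no fold threshold, 7373 genes were up-regulated and 5738 down-regulated, and 3 factors (KLF4 1.496, KLF5 1.44, GATA6 0.87) counted as up-regulated. When the fold change was tested against 3, 2974 and 1779 genes were called. The cause of these differences was not tested. DESeq2, no filter, unrounded counts and robust moderation changed no call of a factor.

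Without single libraries, the log2 fold change ranged over -2.06 to -1.94 for CDX2, 1.28 to 1.63 for KLF4, 1.26 to 1.53 for KLF5, 0.59 to 1.01 for GATA6 and -0.33 to -0.068 for HNF4A, with 0 to 1 factor up-regulated (KLF4 without parental replicate 3, HNF4G without p85β KR-AA replicate 3) and 1 down-regulated, 4404 to 4783 genes up-regulated and 2774 to 2992 down-regulated. HNF4G was counted there only with its low mutant library left out, so that nothing is read from that count. The difference in the log2 ratio ranged from -2.10 to -0.17 for HNF4A to HNF4G and from 0.0086 to 0.16 for KLF4 to KLF5. With 3 counts added in place of 0.5, it was -0.45 and 0.070. With the replicate number as a block, CDX2 was at -1.98, KLF4 at 1.53, KLF5 at 1.46, GATA6 at 0.92 and HNF4A at -0.12, and 4626 genes were up-regulated and 2827 down-regulated. It changed no call of a factor. Equal numbers did not pair the libraries (correlations of deviations -0.14, 0.12 and -0.045 for replicates 1, 2 and 3). The estimated prior degrees of freedom were infinite in that fit, so its p-values are not given. Depth limits CDX1, HNF4G and ATOH1, which lie near or under 3 counts in most libraries.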
